A study of Mus musculus with 27 samples.

Results

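The heat shock chaperones described here are 10 genes that code for protein-folding factors: Hspa1a, Hspa1b, Hspa8, Hspa5, Hsp90aa1, Hsp90ab1, Dnajb1, Hsph1, Hspb1 and Hspe1. They were taken by symbol, 1 row each, from the 55416 rows of a table of gene read counts. The libraries came from RNA of whole brains of fetuses of 3 mouse strains. Fetuses were taken on d12, d15 or d17 of gestation, the day of the vaginal plug being day 1, and each of the 9 groups had 3 libraries. C57BL/6J is the long-lived inbred strain of the study, and AKR/J, an inbred strain, and B6.Cg-Cav1tm1Mls/J are its short-lived strains. The latter (Cav1-null) is a congenic line on a C57BL/6J background in which the caveolin gene Cav1 was disrupted. The labels list no treatment, the mothers were bred at about 8 weeks of age, and every fetus was recorded as female. The labels do not tell which fetuses shared a litter, so that p-values measure the spread between these libraries only.

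Heat shock proteins bind unfolded or partly folded proteins and help them to reach, or to regain, their folded state. Some of their genes are transcribed in nearly all cells at all times, while others are switched on by heat shock factors, which bind repeated GAA and TTC blocks in promoters when unfolded proteins accumulate. In the growing brain, chaperones of the cytosol, the endoplasmic reticulum (ER) and the mitochondria serve cells that divide quickly and make large amounts of new protein.

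The libraries held 26363697 to 39759702 reads in genes, and the 3 C57BL/6J d15 libraries were the deepest, at 37191332 reads or more. Levels are given as CPM, the read counts brought to a common library size, with TMM factors, which scale the library totals so that most genes stay level. Cav1 was at 0 to 0.509 CPM in the 9 Cav1-null libraries and at 9.24 to 39.9 CPM in the others, and all 12 marker genes of brain cells reached 1 CPM in every group. Checks of the libraries set some of them apart. Of the 27 libraries, 3 went against the recorded sex. The library labelled AKR/J d12 replicate 1 held 50.6 CPM over 4 genes of the Y chromosome beside 2771 CPM of Xist, the RNA of the inactive X chromosome. The library labelled AKR/J d15 replicate 3 had 3.29 CPM of Xist and no read of the Y genes, and the library labelled Cav1-null d12 replicate 2 had 3.70 CPM of Xist and 428 CPM of the Y genes. In the other 24 libraries Xist stood at 2433 to 6346 CPM and the Y genes at no more than 0.508 CPM in sum. Results that rest on those 3 libraries are therefore given with and without them.

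The AKR/J d12 libraries also held markers of other tissues. Of 12 erythroid markers 11 reached 1 CPM there, with a summed level of 33227 to 197860 CPM against 569 to 18615 CPM in the other groups. Of 12 markers of trophoblast, decidua and yolk sac 11 did so, with a sum of 73.8, 291 and 2205 CPM from the lowest to the highest library against 149 to 626 CPM elsewhere, so that 1 of the 3 libraries was above that range and 1 below it. The 12 brain markers summed to 3774 to 6237 CPM in these libraries and to 4895 to 8580 CPM in the others. On d15, 2 libraries also stood apart. The 12 markers of lens, epidermis and cartilage summed to 450 CPM in AKR/J d15 replicate 2 and to 578 CPM in C57BL/6J d15 replicate 1, against 54.3 to 118 CPM in the other 7 libraries of that day, and the 12 of skeletal muscle to 113.5 and 73.3 CPM against 4.78 to 22.3 CPM. Without AKR/J d15 replicate 2, 9 members differed between AKR/J and C57BL/6J on d15 (37.9% of all genes) in place of 8 (41.1%). Without C57BL/6J d15 replicate 1 the count was 8 in AKR/J (31.5%) and 9 in Cav1-null (53.5%, against 8 and 58.6% with all libraries). In bulk tissue, fewer cells of a type and less RNA per cell cannot be told apart. Finally, libraries differed by the base composition of the transcripts they favoured. The median deviation of GC-rich minus GC-poor transcripts (top and bottom tertile, on the log2 scale) was 0.56 to 0.65 in all 3 C57BL/6J d15 libraries, in C57BL/6J d12 replicate 2 and in C57BL/6J d17 replicate 1, and −0.55 to 0.36 in the other 22. The deviation of short minus long transcripts was 0.75 and 0.68 in AKR/J d12 replicates 1 and 3 and −0.44 to 0.24 in the others.

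Per transcript length, the members spanned a wide range of expression. Hsp90ab1, the constitutive HSP90 of the cytosol, had the highest level, with a mean of 458 RPKM (CPM per kilobase of transcript) over the 27 libraries and rank 102 among 16392 genes with a mean of at least 1 CPM and a known length. Hspa8, the constitutive HSP70 of the cytosol, followed at 376 RPKM, then Hsp90aa1, the HSP90 that heat can induce, at 264 RPKM, and Hspe1, the co-chaperonin of the mitochondrial matrix, at 172 RPKM. Hspa5, the HSP70 of the ER that is also called BiP, stood at 50.5 RPKM. The co-chaperones were lower. Hsph1, an HSP110 that releases ADP from HSP70, had 20.4 RPKM and Dnajb1, a J-domain protein that delivers substrates to HSP70, had 12.3 RPKM. Hspb1, a small heat shock protein, had 2.56 RPKM. At the bottom were the 2 stress-inducible HSP70 genes, Hspa1b with 0.50 RPKM, which ranked 15662, and Hspa1a with 0.314 RPKM, whose mean was under 1 CPM, so that it was not among the ranked genes. Both genes rested on few reads, 5 to 148 per library for Hspa1a and 7 to 156 for Hspa1b. The spread between libraries was widest in the same genes. Hspa1a varied 28.9-fold from its lowest library (Cav1-null d15 replicate 3) to its highest (C57BL/6J d17 replicate 1), Hspa1b 22.1-fold and Hspe1 17.7-fold, whereas Hsp90aa1 varied 1.96-fold and Dnajb1 2.05-fold.

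**Figure D1:**
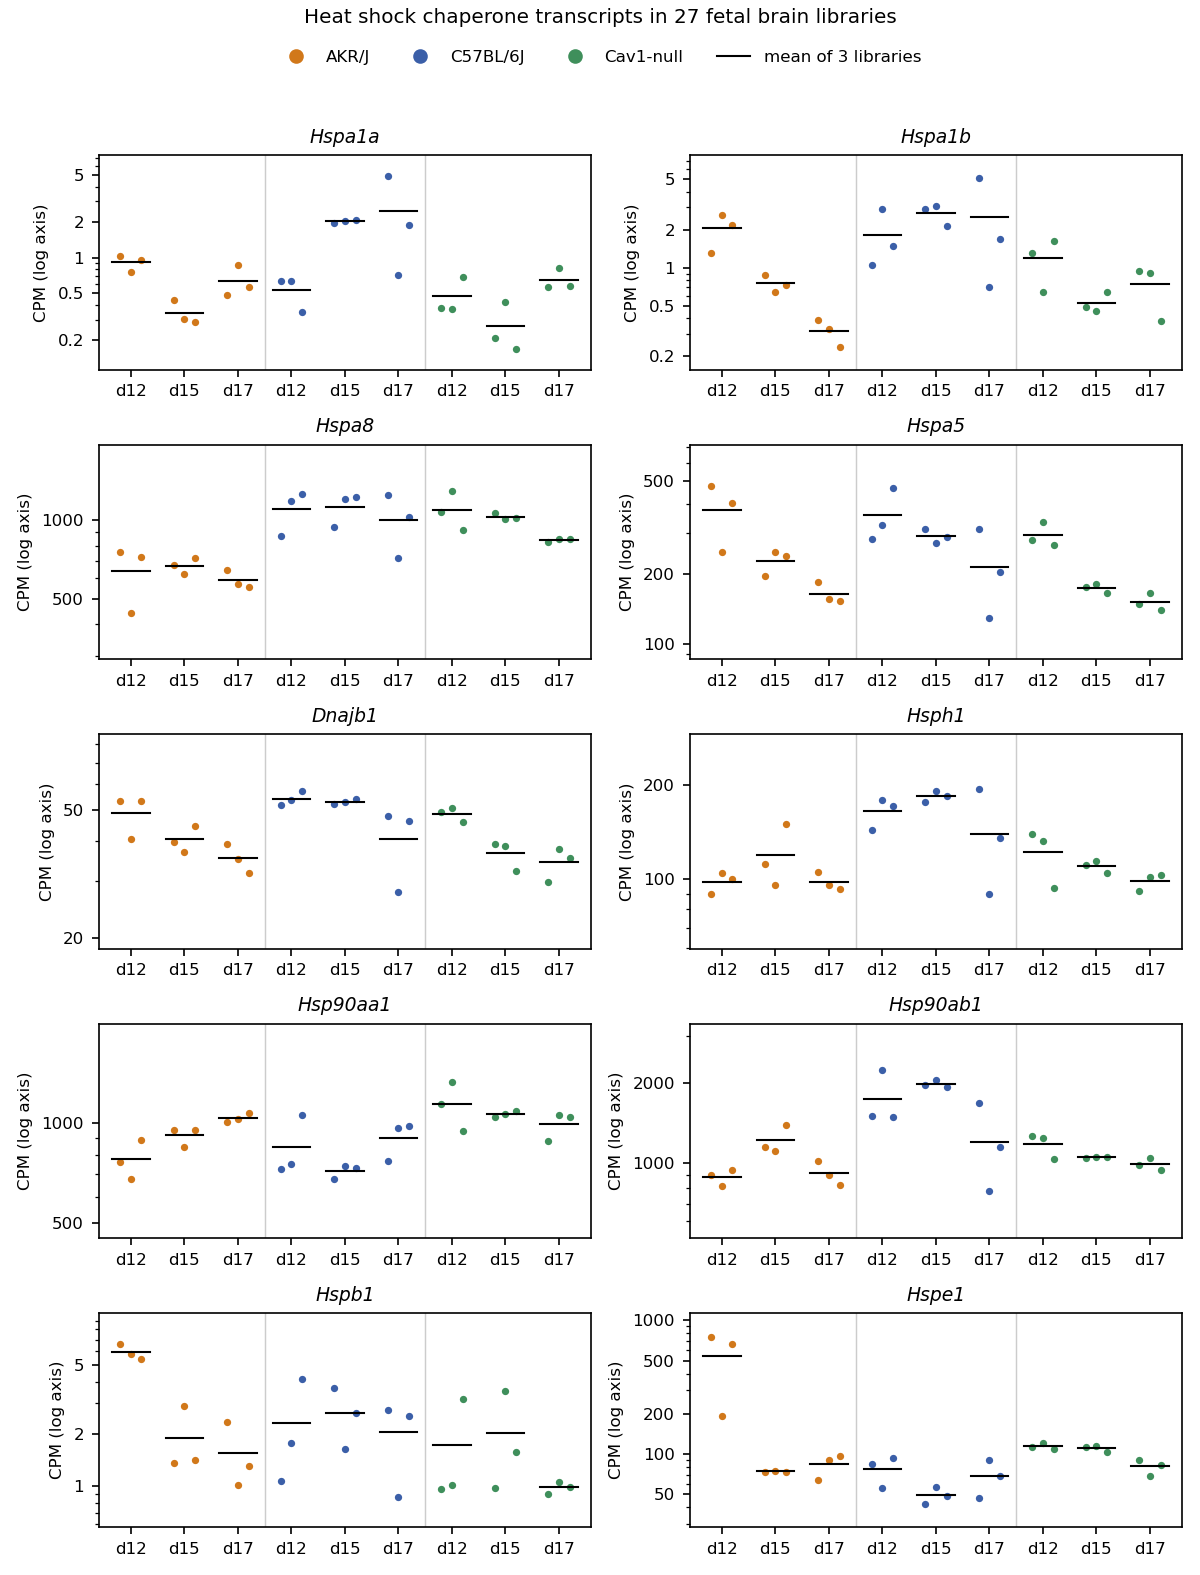
Level of each of the 10 heat shock chaperones in all 27 libraries (points, CPM on a log axis) by strain and gestational day, with the group mean as a line. Hspe1 stood out in AKR/J on d12, where its 3 libraries had 755, 194 and 661 CPM against no more than 122 CPM in any other library.

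RefSeq promoters (GRCm38.p6) were found for 7 of the 10 members, and they were searched on both strands for 4 short patterns. The heat shock element of 3 blocks (GAANNTTC followed by NNGAA, or TTCNNGAA followed by NNTTC) occurred in 0.603% of 32851 promoters of the same length. Of its parts with 2 blocks, which were searched after the values had been seen, GAANNTTC occurred in 7.86% and TTCNNGAA in 8.52%, and both are contained in the longer pattern. The ER stress response element (CCAAT and CCACG with 9 free bases between them) occurred in 0.119%. Stretches around the matches are given for 6 members, because the genes differ in which pattern they hold. Capitals mark the matched bases, and each stretch runs 5′ to 3′ on the strand of the gene. Those of Hspa1a (chr17:34972223-34972290, minus strand) and Hspa1b (chr17:34959305-34959372, minus strand) were identical and held 2 blocks. Hspa5 (chr2:34771995-34772073, plus strand) held the ER stress response element, Hsph1 (chr5:149636337-149636399, minus strand) 2 blocks, Hspb1 (chr5:135887772-135887859, plus strand) 2 separate pairs of blocks, and Hspe1 (chr1:55088029-55088106, plus strand) 2 overlapping matches to the 3-block element. Hsph1 also matched the 3-block element downstream of its start, in a stretch not printed. No match was found for Dnajb1 in this window. Promoters of Hspa8, Hsp90aa1 and Hsp90ab1 were not analysed here.
Hspa1a: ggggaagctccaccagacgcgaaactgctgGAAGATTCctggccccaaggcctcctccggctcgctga
Hspa1b: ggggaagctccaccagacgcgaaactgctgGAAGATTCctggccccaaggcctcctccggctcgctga
Hspa5: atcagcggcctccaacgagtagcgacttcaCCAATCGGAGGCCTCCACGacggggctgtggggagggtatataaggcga
Hsph1: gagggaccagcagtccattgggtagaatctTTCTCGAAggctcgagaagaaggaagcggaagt
Hspb1: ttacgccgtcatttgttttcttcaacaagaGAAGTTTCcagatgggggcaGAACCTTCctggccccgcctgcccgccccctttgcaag
Hspe1: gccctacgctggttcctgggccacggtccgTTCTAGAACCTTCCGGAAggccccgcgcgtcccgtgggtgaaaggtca

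The members were compared between consecutive days within each strain and between each short-lived strain and C57BL/6J on each day. The quasi-likelihood test of edgeR was run on every gene, with p adjusted over all genes by the method of Benjamini-Hochberg, and a gene was called when this adjusted p was under 0.05. All 10 members passed the filter on low counts in every comparison. Of 120 tests of a member between 2 groups, 28 were called, 6 higher and 22 lower in the later day or the short-lived strain. Over all genes, 21.5% of the tests in these 12 comparisons were called, 10.6% higher and 10.9% lower. Differences between strains made up 18 of the 28, and 16 of these were on d15, which also held 77.6% of the calls between strains over all genes. Of the 60 tests between days, 10 were called, 1 higher and 9 lower, where 11.2% of the tests over all genes were higher and 10.4% lower.

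On d15, AKR/J differed from C57BL/6J in 8 of the 10 members, with 2 higher and 6 lower. This was read against 41.1% of all genes called in that comparison, 18.8% higher and 22.3% lower. The AKR/J count was 5 without AKR/J d15 replicate 1 and 5 without C57BL/6J d15 replicate 2, with Hsp90aa1, Dnajb1 and Hsph1 not called in either, and 5 in 1 model of all 27 libraries, with Hsp90aa1, Dnajb1 and Hspe1 not called. All genes were called at 28.2%, 28.3% and 22.5% in these 3 fits. Cav1-null also differed from C57BL/6J in 8 members on d15, 2 higher and 6 lower, against 58.6% of all genes, 26.8% higher and 31.8% lower. Their median log2 difference was −0.48 in AKR/J, where the median of all genes was 0.06, and −0.60 in Cav1-null, where it was 0.03. Hsp90aa1 and Hspe1 were higher in both strains. Hspa1a, Hspa1b, Hsp90ab1, Dnajb1 and Hsph1 were lower in both. Both comparisons used the same C57BL/6J libraries. Those 3 libraries were also the deepest, and all 3 were among the 5 that favoured GC-rich transcripts. With the trends with GC content and length taken out, an alternative chosen after seeing the data, Dnajb1 (−0.10, adjusted p = 0.297) and Hsph1 (−0.21, adjusted p = 0.171) were no longer called in AKR/J, and all 8 members stayed called in Cav1-null. The same 8 members were called in AKR/J without the d15 library lacking Xist, with changes of −2.39 (Hspa1a) to 0.65 (Hspe1). Markers of several other cell types moved along with these differences, those of blood vessels among them. Of 12 blood vessel markers, 11 reached 1 CPM in C57BL/6J and AKR/J on d15 and 10 in Cav1-null, with sums of 332 to 439, 224 to 258 and 205 to 213 CPM. In AKR/J 8 of them were called lower and 1 higher than in C57BL/6J, and in Cav1-null 10 lower and 1 higher of 11 tested. The brain markers summed to 7716 to 8580 CPM in C57BL/6J on that day, and lay lower in AKR/J (4895 to 6903 CPM) and Cav1-null (6375 to 6555 CPM). Erythroid markers, of which 10 of 12 reached 1 CPM in each strain, had sums of 825 to 1067 CPM in C57BL/6J. The AKR/J sums were 2011.3 to 3069.5 CPM, and those of Cav1-null 2909 to 3616 CPM. The 8 microglia markers, which all reached 1 CPM, summed to 50.3 to 64.3 CPM in C57BL/6J, with at most 45.2 CPM in AKR/J and 41.2 CPM in Cav1-null. In all 4 sets C57BL/6J did not overlap with the short-lived strains. The part of these cells in the chaperone differences was not tested.

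Beside the test, members whose 3 libraries of one group all lay on one side of the other group were counted. On d15, 7 members in AKR/J lay below C57BL/6J and 2 above, where 30% and 23.5% of all genes did, and in Cav1-null 6 lay below and 2 above, against 35.8% and 29.5%. On d12 AKR/J had 3 below and 3 above (30.8% and 18.7%), and Cav1-null 3 below and 1 above (17.5% and 13.1%). On d17 the counts were 2 below and 1 above in AKR/J (13.1% and 14.3%) and 0 in either direction in Cav1-null (6.16% and 6.36%). From d12 to d15 the later day was lower for 4 members and higher for 1 in AKR/J (19.7% and 27.8%), for 0 and 1 in C57BL/6J (20.8% and 22.3%) and for 2 and 0 in Cav1-null (20.2% and 20.7%). From d15 to d17 the counts were 3 lower and 2 higher in AKR/J (21.1% and 20%), 2 and 1 in C57BL/6J (25.0% and 17.3%) and 4 and 1 in Cav1-null (21.0% and 20.8%).

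Fewer members were called elsewhere. On d12, 2 members differed between AKR/J and C57BL/6J, 1 higher and 1 lower, against 28.6% of all genes, 14.5% higher and 14.1% lower. No member differed between Cav1-null and C57BL/6J on d12, where 0 of 19475 genes were called and 2 members (Hsp90ab1 and Hspe1) had an unadjusted p under 0.05. On d17, 0 members were called in AKR/J (0.742% of all genes) and 0 in Cav1-null (0.0491%), with 3 members at an unadjusted p under 0.05 in each. DESeq2 called 3 members in AKR/J on d17, namely Hspa1a (−1.97, adjusted p = 0.0395), Hspa1b (−2.998, adjusted p = 0.00133) and Hspa8 (−0.77, adjusted p = 0.0269), where it called 5.82% of all genes, and none in the 2 Cav1-null comparisons. These 2 d17 counts turned on C57BL/6J d17 replicate 2. Without it, 6 members were lower in AKR/J (Hspa1a, Hspa1b, Hspa8, Hspa5, Hsp90ab1 and Hsph1) and 5 in Cav1-null (Hspa1a, Hspa1b, Hspa5, Hsph1 and Hspb1). In those fits 15.1% of all genes were called lower in AKR/J and 9.94% in Cav1-null. The library left out had a GC-rich minus GC-poor deviation of −0.14, within the −0.24 to −0.05 of the AKR/J and Cav1-null d17 libraries. The C57BL/6J d17 libraries kept had 0.65 and 0.21. With all libraries and the GC and length trends taken out, none of these members was called. Their adjusted p was 0.08626 or more in AKR/J and 0.6536 or more in Cav1-null.

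Between days, AKR/J had 3 members lower on d15 than on d12, against 28.9% of all genes called and 14.0% called lower, and 2 members lower on d17 than on d15, against 22.1% and 10.4%. In C57BL/6J, 1 member was higher on d15 than on d12 (14.9% of all genes called, 7.08% higher and 7.80% lower), and none was called from d15 to d17 (13.0%, 7.46% higher and 5.58% lower), where 2 members had an unadjusted p under 0.05. DESeq2 also called none there, but 5 members were called without C57BL/6J d17 replicate 1: Hspa5 (−0.74), Hsp90ab1 (−0.98) and Hsph1 (−0.64) lower, Hsp90aa1 (0.49) and Hspe1 (0.74) higher. In that fit 33.2% of all genes were called. The library left out had a GC-rich minus GC-poor deviation of 0.65, near the 0.56 to 0.61 of the C57BL/6J d15 libraries. The d17 libraries kept had −0.14 and 0.21. With all libraries and the GC and length trends taken out, Hsp90aa1 (0.44, adjusted p = 0.0470) and Hspe1 (0.47, adjusted p = 0.0498) were called. Hspa5 (adjusted p = 0.576), Hsp90ab1 (adjusted p = 0.186) and Hsph1 (adjusted p = 0.80) were not. In Cav1-null, 2 members were lower on d15 than on d12 (23.4% and 11.8%), and 2 were lower on d17 than on d15 (27.3% and 12.8%).

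**Figure D2:**
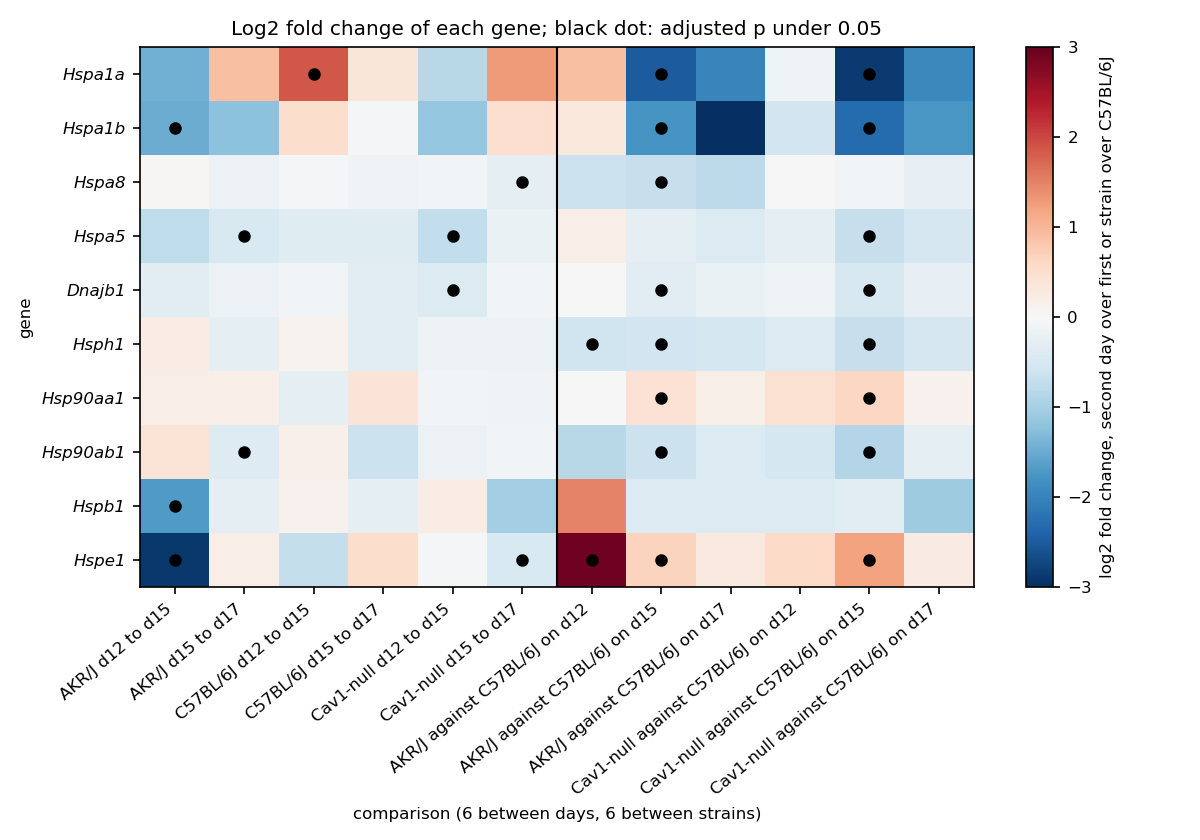
Log2 fold change (colour, from −3 to 3) of each heat shock chaperone (rows) in the 12 comparisons of 2 groups (columns), with a black dot where the member was called. The columns for d15 hold 16 of the 18 called differences between strains (77.6% of such calls over all genes), and in both of them Hspa1a and Hspa1b had the most negative values.

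The stress-inducible pair Hspa1a and Hspa1b lies in tandem on the minus strand of chromosome 17 (GRCm39, chr17:35188166-35191132 and chr17:35175412-35178214). Their coding sequences were 99.58% identical, with 8 differences in 1926 aligned bases, and 3 of the 250 promoter bases differed. Reads from shared stretches could have been split between the genes or left out, so that the value of either gene alone is uncertain. On d15 Hspa1a was at 1.97, 2.07 and 2.09 CPM in C57BL/6J, at 0.440, 0.306 and 0.288 CPM in AKR/J and at 0.209, 0.420 and 0.169 CPM in Cav1-null. No library of the short-lived strains came near the C57BL/6J range, and the 2 short-lived strains overlapped with each other. The log2 difference from C57BL/6J was −2.49 in AKR/J (SE 0.28, adjusted p = 5.4e-04) and −2.87 in Cav1-null (SE 0.36, adjusted p = 6.0e-05).

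Hspa1b gave the same order on d15, with 2.92, 3.10 and 2.12 CPM in C57BL/6J, 0.880, 0.642 and 0.735 CPM in AKR/J and 0.488, 0.452 and 0.644 CPM in Cav1-null. All C57BL/6J libraries lay above those of both other strains, which overlapped with each other. The difference was −1.78 in AKR/J (SE 0.26, adjusted p = 0.00154) and −2.31 in Cav1-null (SE 0.28, adjusted p = 5.2e-05). Summed and tested as 1 gene, an alternative chosen after seeing the data, the pair was lower by −2.05 in AKR/J (adjusted p = 4.75e-04) and by −2.54 in Cav1-null (adjusted p = 3.8e-06). On d17 the C57BL/6J libraries spread widely, at 4.90, 0.709 and 1.89 CPM for Hspa1a and 5.17, 0.709 and 1.67 CPM for Hspa1b. The first of these libraries was also the one of the 3 that favoured GC-rich transcripts. In Cav1-null, Hspa1b had 1.31, 0.642 and 1.61 CPM on d12, and its change to d15 was −1.17 (SE 0.43, adjusted p = 0.0831), or −1.48 (adjusted p = 0.0360) without the d12 library that held Y reads.

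In C57BL/6J, Hspa1a rose from 0.631, 0.631 and 0.349 CPM on d12 to about 2 CPM on d15 (log2 fold change 1.87, SE 0.31, adjusted p = 0.0202). It was the single member called higher between days, alternative fits aside. In AKR/J its level was 1.03, 0.757 and 0.965 CPM on d12, above all 3 libraries of d15, and the log2 fold change to d15 was −1.44 (SE 0.49, adjusted p = 0.0583). Hspa1b fell over the same days in AKR/J, from 1.32, 2.63 and 2.18 CPM (−1.49, SE 0.43, adjusted p = 0.0347). The difference in change between AKR/J and C57BL/6J was −3.37 for Hspa1a (SE 0.52, adjusted p = 0.0471), which was 1 of 15 genes called, or 0.0711% of 21090 tested, and −2.08 for Hspa1b (SE 0.57, adjusted p = 0.142), which DESeq2 called (−2.12, adjusted p = 0.0234, with 4.74% of all genes called). These calls were near the threshold. The rise in C57BL/6J was lost in 4 of 6 fits without 1 library (1.66 to 2.02, adjusted p up to 0.116), and the fall of Hspa1b in AKR/J in 5 of 6 (−1.72 to −1.28, adjusted p up to 0.128) and without both libraries against the recorded sex (−1.70, adjusted p = 0.115). The difference between strains was lost in 10 of 12 such fits (−3.58 to −3.14, adjusted p up to 0.251) and without the libraries that went against the recorded sex (−3.20, adjusted p = 0.304). With the pair summed, the rise in C57BL/6J was 0.97 (adjusted p = 0.0677), the fall in AKR/J −1.48 (adjusted p = 0.0191) and the difference between strains −2.50 (adjusted p = 0.112). The fall of Hspa1a by itself in AKR/J was called only in 1 model of all 27 libraries (−1.40, adjusted p = 0.0328), with the GC and length trends taken out (−1.63, adjusted p = 0.0428) and without AKR/J d12 replicate 2 (−1.59, adjusted p = 0.0418). Hspa1a and Hspa1b together stood at 4.22 to 5.16 CPM in C57BL/6J on d15 and at 1.67 to 3.56 CPM on d12.

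For Hspe1 the difference in change from d12 to d15 between AKR/J and C57BL/6J was −2.24 (SE 0.54, adjusted p = 0.138). It was called with DESeq2 (−2.28, adjusted p = 0.00209), without a filter, in 1 model of all 27 libraries and without AKR/J d12 replicate 2 (−2.66, adjusted p = 1.9e-04), where 14.8% of all genes were called. The other 3 interactions called no member with all libraries. For the change from d15 to d17 in AKR/J against C57BL/6J, 0.00468% of genes were called and 0 members had an unadjusted p under 0.05. For Cav1-null against C57BL/6J, 0.00472% of genes were called from d12 to d15 and 0.252% from d15 to d17, with 4 and 2 members at an unadjusted p under 0.05. DESeq2 called none in the first and second of these and Hspe1 in the third (−0.95, adjusted p = 0.0260). Single C57BL/6J libraries turned both Cav1-null counts. Without d12 replicate 2, Hspa1a, Hspa1b and Hspe1 were called in the early interaction, with 7.30% of all genes. Without d17 replicate 1, Hspa1a, Hsp90aa1, Hsp90ab1, Hsph1 and Hspe1 were called in the late one, with 26.1% of all genes.

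Hspa8, the housekeeping HSP70 (GRCm39, chr9:40711630-40731039, plus strand), was called lower in AKR/J than in C57BL/6J on d15 and was not called in Cav1-null, and whether the 2 strains differ in this was not tested. On d15 it had 672, 621 and 718 CPM in AKR/J, 941, 1211 and 1232 CPM in C57BL/6J and 1063, 1010.3 and 1022.5 CPM in Cav1-null. AKR/J lay below both other strains without overlap, and Cav1-null lay inside the C57BL/6J range. The log2 difference was −0.68 for AKR/J (SE 0.12, adjusted p = 0.00338) and −0.09 for Cav1-null (SE 0.09, adjusted p = 0.428), where it was called without C57BL/6J d15 replicate 1 (−0.20, adjusted p = 0.0155). The AKR/J libraries were also below all C57BL/6J libraries on d12 (−0.65, SE 0.30, adjusted p = 0.135) and on d17 (−0.78, SE 0.22, adjusted p = 0.156), where the test did not call them. In Cav1-null, Hspa8 fell from d15 to 826, 851 and 850.5 CPM on d17 (−0.29, SE 0.07, adjusted p = 0.00855), a call lost in 1 model of all 27 libraries (−0.29, adjusted p = 0.490).

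Hspa5, the BiP chaperone of the ER lumen (GRCm39, chr2:34661982-34668880, plus strand), was called lower on a later day in both short-lived strains. Its group means fell in C57BL/6J as well, from 359 CPM on d12 to 291 CPM on d15 and 215 CPM on d17. Neither step was called there, though the second was without C57BL/6J d17 replicate 1 (−0.74, adjusted p = 0.037). Hspa5 was not called in any interaction of strain and day. In Cav1-null it went from 280, 335 and 265 CPM on d12 to 176, 181 and 165 CPM on d15, with no overlap (−0.75, SE 0.10, adjusted p = 0.00136). Leaving out any 1 library, the one with Y reads included, kept this call (−0.81 to −0.66). In AKR/J it went from 196, 249 and 240 CPM on d15 to 184, 156 and 153 CPM on d17 (−0.46, SE 0.12, adjusted p = 0.0251). That call was lost without the d15 library lacking Xist (−0.43, adjusted p = 0.0541), and also without d17 replicate 2 (adjusted p = 0.123) or 3 (adjusted p = 0.115). From d12 to d15 in AKR/J the fold change was −0.77 with a wider error (SE 0.26, adjusted p = 0.0591). It was called with DESeq2 (−0.79, adjusted p = 0.0158), RLE factors, a stricter filter, 1 model of all 27 libraries or the trends taken out (−0.72 to −0.99, adjusted p up to 0.0493), and without AKR/J d12 replicate 2 (−1.02, adjusted p = 0.00204), but not without any other single library (−0.55 to −0.82, adjusted p from 0.112). Between strains on d15, Cav1-null lay below C57BL/6J, which had 313, 272 and 287 CPM (−0.70, SE 0.07, adjusted p = 1.2e-05). All AKR/J libraries also lay below C57BL/6J, but the difference of −0.28 was not called (SE 0.11, adjusted p = 0.0820). It was called with DESeq2 (−0.32, adjusted p = 0.0234) and without AKR/J d15 replicate 2 (−0.35, adjusted p = 0.0425), but not with the trends taken out (−0.19, adjusted p = 0.217).

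The 24 other genes of the ER chaperones and the unfolded protein response were described by counts. From d12 to d15 in Cav1-null, 8 were called lower and 0 higher, led by P4hb, a protein disulfide isomerase (−0.84, adjusted p = 6.8e-04), with a median of −0.19 against −0.01 over all genes, of which 11.8% were called lower and 11.6% higher. From d15 to d17, 8 were lower and 0 higher in Cav1-null (12.8% and 14.5% of all genes) and 7 lower and 2 higher in AKR/J (10.4% and 11.6%), both led by Sdf2l1 (−0.71 and −0.79). In C57BL/6J 1 was lower and 1 higher from d12 to d15 (7.80% and 7.08%), and 1 lower and 0 higher from d15 to d17 (5.58% and 7.46%). On d15, 14 of the 24 were lower and 6 higher in Cav1-null than in C57BL/6J (31.8% and 26.8% of all genes), and 7 lower and 2 higher in AKR/J (22.3% and 18.8%). Hyou1, a large HSP70 of the ER, lay furthest below C57BL/6J in both, by −1.58 (adjusted p = 7.9e-08) and −1.17 (adjusted p = 4.2e-04). The medians were −0.43 and −0.16, beside 0.03 and 0.06 over all genes.

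The 2 HSP90 genes of the cytosol differed from C57BL/6J in opposite directions on d15. Hsp90aa1 (GRCm39, chr12:110656842-110669166, minus strand) had 676, 743 and 730.25 CPM in C57BL/6J, 953, 848 and 949 CPM in AKR/J and 1039, 1066 and 1085 CPM in Cav1-null. Hsp90ab1 (GRCm39, chr17:45878552-45891949, minus strand) had 1957, 2041 and 1929 CPM in C57BL/6J, 1144.5, 1101.5 and 1392 CPM in AKR/J and 1043, 1052 and 1047.5 CPM in Cav1-null. Neither gene overlapped between C57BL/6J and the other strains. Hsp90aa1 was higher by 0.42 in AKR/J (SE 0.08, adjusted p = 0.00525) and by 0.61 in Cav1-null (SE 0.05, adjusted p = 3.9e-06). Hsp90ab1 was lower by −0.64 in AKR/J (SE 0.10, adjusted p = 0.00259) and by −0.87 in Cav1-null (SE 0.05, adjusted p = 2.1e-07). The higher Hsp90aa1 in AKR/J was not called without AKR/J d15 replicate 1 (0.38, adjusted p = 0.0568) or C57BL/6J d15 replicate 2 (0.43, adjusted p = 0.05003). On d12 Hsp90ab1 also lay lower in both short-lived strains without overlap, by −0.83 (AKR/J, adjusted p = 0.0595) and −0.52 (Cav1-null, adjusted p = 0.188). Neither was called. Alternatives such as DESeq2 (−0.84, adjusted p = 0.00577) and 1 model of all 27 libraries (−0.97, adjusted p = 2.9e-04) called the AKR/J difference. The fit with the GC and length trends taken out did not (−0.49, adjusted p = 0.176). Hsp90aa1 overlapped between the strains on d12.

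Their ratio within a library needs no scaling between libraries. Hsp90aa1 reads over Hsp90ab1 reads came to 0.346, 0.364 and 0.379 in C57BL/6J on d15, to 0.833, 0.769 and 0.681 in AKR/J and to 0.996, 1.01 and 1.04 in Cav1-null. In C57BL/6J on d12 the ratio was 0.485, 0.337 and 0.713, and on d17 it was 0.456, 1.23 and 0.857. The 5 libraries that favoured GC-rich transcripts had the 5 lowest ratios of all 27, 0.337 to 0.456, and the Hsp90ab1 transcript had a GC content of 50.8% against 44.3% for Hsp90aa1. With the trends with GC content and length taken out, the d15 differences were 0.34 and −0.48 in AKR/J (adjusted p = 0.0148 and 0.00618) and 0.54 and −0.65 in Cav1-null (adjusted p = 6.2e-06 and 1.5e-06). The share of the trend in the ratio itself was not tested. Counted on 1 splice junction per gene, an alternative chosen after seeing the data, the mean ratio on d15 was 0.442 in C57BL/6J (2 libraries with a value), 1.000 in AKR/J (3 libraries) and 1.27 in Cav1-null (2 libraries), the same order of groups. Between days, Hsp90ab1 fell from d15 to 1010.0, 901 and 826 CPM on d17 in AKR/J (−0.39, SE 0.12, adjusted p = 0.0473), a call lost in 4 of 6 fits without 1 library, namely d15 replicate 1 (−0.43, adjusted p = 0.0821), d15 replicate 3, which lacked Xist (−0.29, adjusted p = 0.0939), d17 replicate 2 (−0.38, adjusted p = 0.170) and d17 replicate 3 (−0.34, adjusted p = 0.163).

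**Figure D3:**
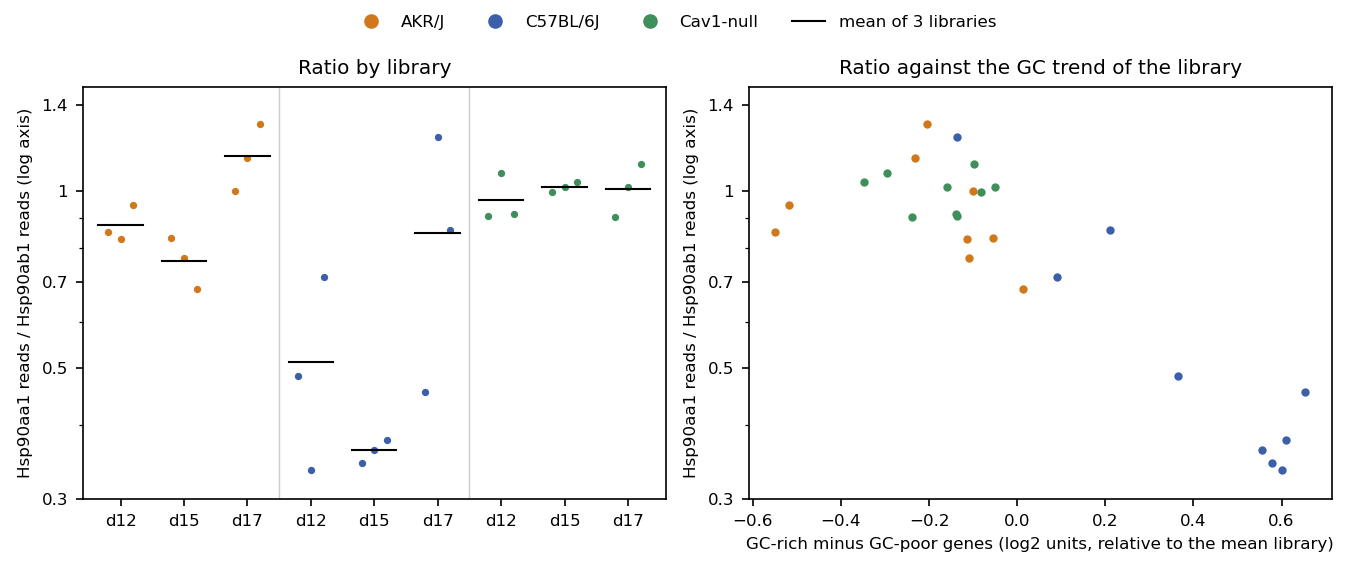
Ratio of Hsp90aa1 to Hsp90ab1 reads (log axis) in each of the 27 libraries, coloured by strain, by gestational day with the group mean as a line (left) and against the library's GC trend, the median log2 deviation of GC-rich minus GC-poor transcripts (right). The 5 libraries with the highest GC trend, all C57BL/6J, had the 5 lowest ratios, 0.337 to 0.456.

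Of 17 other HSP90 genes and cochaperones, 5 were higher and 7 lower in Cav1-null than in C57BL/6J on d15 (26.8% and 31.8% of all genes), and 5 higher and 3 lower in AKR/J (18.8% and 22.3%). Cacybp was the highest in both (0.99 and 0.62), and Ppp5c, a phosphatase that binds HSP90, was the lowest (−0.76 and −0.52). Their medians were −0.13 and −0.00, beside 0.03 and 0.06 over all genes. From d15 to d17 in Cav1-null 6 were lower and 0 higher (12.8% and 14.5%), led by Fkbp4, an immunophilin (−0.43, adjusted p = 0.00206).

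The co-chaperones Hsph1 and Dnajb1 were lower in the short-lived strains on d15. Hsph1 (GRCm39, chr5:149537636-149560156, minus strand) had 177, 192 and 184 CPM in C57BL/6J, 112, 95.8 and 151 CPM in AKR/J and 111, 114 and 105 CPM in Cav1-null. All C57BL/6J libraries lay above the rest. The log2 difference was −0.56 in AKR/J (SE 0.14, adjusted p = 0.0149) and −0.70 in Cav1-null (SE 0.06, adjusted p = 1.9e-06), and with the GC and length trends taken out −0.21 (adjusted p = 0.171) and −0.23 (adjusted p = 0.00399). In AKR/J the call was also lost without AKR/J d15 replicate 1 (adjusted p = 0.0883) or C57BL/6J d15 replicate 2 (adjusted p = 0.0755). On d12, 89.9, 105 and 100.3 CPM in AKR/J lay below 144, 179 and 172 CPM in C57BL/6J (−0.60, SE 0.18, adjusted p = 0.0366). That difference came to −0.01 with the trends taken out (adjusted p = 0.970), and it was not called without the AKR/J d12 library that held Y reads (−0.55, adjusted p = 0.131), nor in 4 of the other 5 fits without 1 library.

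Dnajb1 (GRCm39, chr8:84334811-84339820, plus strand) had 52.2, 52.8 and 53.9 CPM in C57BL/6J on d15, 39.6, 37.1 and 44.7 CPM in AKR/J and 39.0, 38.5 and 32.3 CPM in Cav1-null. The C57BL/6J libraries were within 2 CPM of each other and above all others. The differences were −0.32 in AKR/J (SE 0.07, adjusted p = 0.00904) and −0.49 in Cav1-null (SE 0.08, adjusted p = 4.4e-04), and −0.10 (adjusted p = 0.297) and −0.20 (adjusted p = 0.0335) with the trends taken out. The AKR/J call was lost without AKR/J d15 replicate 1 (adjusted p = 0.0666) or C57BL/6J d15 replicate 2 (adjusted p = 0.0590). In Cav1-null it also fell from 49.2, 50.7 and 45.8 CPM on d12 to d15 (−0.41, SE 0.10, adjusted p = 0.0201). This was lost in 5 of 6 fits without 1 library, that with the Y reads among them (−0.38, adjusted p = 0.0558), with adjusted p up to 0.0702.

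Partners of HSP70 were counted beside these members on d15, when 26.8% of all genes were higher and 31.8% lower in Cav1-null than in C57BL/6J, and 18.8% higher and 22.3% lower in AKR/J. Of 28 other J-domain genes, 14 were higher and 7 lower in Cav1-null and 12 higher and 6 lower in AKR/J, with medians of 0.16 and 0.20 and Dnajc6, the auxilin of neurons, lowest in both (−1.10 and −1.17). Of 10 other HSP70 and HSP110 genes, 1 was higher and 6 lower in Cav1-null and 2 higher and 5 lower in AKR/J, with Hspa2 lowest in both (−2.07 and −1.89) and medians of −0.62 and −0.33. Of 9 exchange factors that release nucleotide from HSP70, 3 were higher and 4 lower in Cav1-null and 3 higher and 3 lower in AKR/J. Bag3, which links HSP70 to selective autophagy and is a heat shock factor target, was the lowest of that list in both. It had 8.54, 5.02 and 5.40 CPM in C57BL/6J on d15, 1.45, 3.02 and 2.43 CPM in AKR/J and 1.05, 1.13 and 0.915 CPM in Cav1-null. The groups did not overlap, and the differences were −1.38 (SE 0.34, adjusted p = 0.0145) and −2.57 (SE 0.26, adjusted p = 1.4e-05).

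Hspb1 (GRCm39, chr5:135916760-135918417, plus strand), which holds unfolded proteins in solution, was low in most libraries and highest in AKR/J on d12. There it had 6.63, 5.79 and 5.38 CPM, against 1.35, 2.90 and 1.41 CPM on d15, and the groups did not overlap. It fell by 1.70 on the log2 scale between these days (SE 0.38, adjusted p = 0.0137), and its difference from C57BL/6J on d12 was 1.49 (SE 0.49, adjusted p = 0.0511). That difference was called in 7 of 15 alternative fits, among them DESeq2 (1.48, adjusted p = 0.0112) and RLE factors (1.52, adjusted p = 0.0490), and not with the GC and length trends taken out (1.18, adjusted p = 0.143). Of the 6 fits without 1 library it was called in 1, without C57BL/6J d12 replicate 3 (2.19, adjusted p = 0.0112). The AKR/J d12 libraries are those with the raised erythroid markers listed above, whose part in the level of Hspb1 was not tested. The fall was not called without AKR/J d15 replicate 1 (−1.50, adjusted p = 0.0651) or replicate 3, the library lacking Xist (−1.51, adjusted p = 0.0652), nor without both libraries against the recorded sex (−1.43, adjusted p = 0.143), nor with the GC and length trends taken out (−1.25, adjusted p = 0.0517). Of 9 other small heat shock genes, 5 passed the filter in AKR/J from d12 to d15, and 2 of them were lower and 0 higher (14.0% and 14.8% of all genes), led by Hspb11 (−2.003). Against C57BL/6J on d12, 2 were higher and 0 lower (14.5% and 14.1%), led by Cryab, the crystallin that also acts as a chaperone (2.99, adjusted p = 0.0201).

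Hspe1 (GRCm39, chr1:55127260-55130476, plus strand) codes for the lid of the mitochondrial chaperonin, whose barrel is made by its neighbour gene Hspd1, and it was called more often than any other member, in 5 of 12 comparisons. In AKR/J on d12 it had 755, 194 and 661 CPM, and in AKR/J on d15 it had 74.2, 74.4 and 74.1 CPM. All 3 d12 libraries were above those of every other group, of which the highest, Cav1-null d12 replicate 2, had 121.65 CPM, and replicate 2 was well under the other 2. The erythroid markers, of which 11 of 12 reached 1 CPM on d12 and 10 of 12 on d15, summed to 33227 to 197860 CPM in the d12 libraries and to 2011.3 to 3069.5 CPM on d15, and their part in the level of Hspe1 was not tested. The log2 fold change to d15 was −2.90 (SE 0.46, adjusted p = 0.00401), and the difference from C57BL/6J on d12, where the level was 84.6, 55.9 and 92.9 CPM, was 2.92 (SE 0.49, adjusted p = 0.0115). The fold change to d15 kept its call without any 1 library (−3.32 to −2.57), and it was −2.56 (adjusted p = 0.0625) with 2 libraries in each group once those against the recorded sex were left out. The difference from C57BL/6J was then 2.58 (adjusted p = 0.0434), and it was not called without C57BL/6J d12 replicate 2 (2.69, adjusted p = 0.0622).

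Hspe1 and Hspd1 share a promoter region, so Hspd1 was looked at after its values had been seen. It had 333, 189 and 283 CPM in AKR/J on d12, and its log2 fold change to d15 was −0.32 (SE 0.23, adjusted p = 0.331). Hspe1 reads over Hspd1 reads were 2.27, 1.02 and 2.33 in the AKR/J d12 libraries and 0.192 to 0.607 in the other 24. The AKR/J d12 library with the lowest ratio, replicate 2, also had the lowest short-minus-long deviation of the 3 (0.19 against 0.75 and 0.68), and the Hspe1 transcript, with 774 bases, was the shortest of the members. With the GC and length trends taken out, Hspe1 still differed by −2.32 from d12 to d15 (adjusted p = 0.00461) and by 2.24 from C57BL/6J on d12 (adjusted p = 0.0152). The 6 Hspe1 pseudogenes stayed at or under 0.536 CPM in every library.

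**Figure D4:**
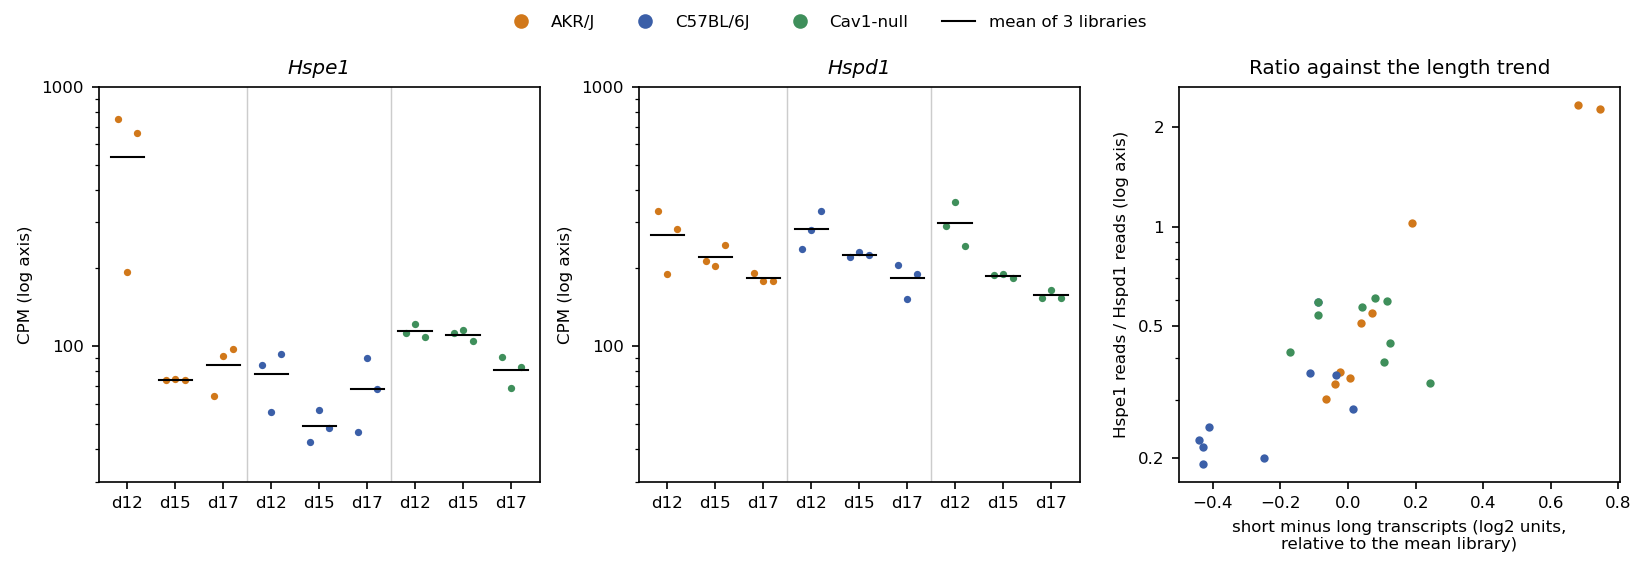
Levels of Hspe1 (left) and Hspd1 (middle) in CPM on a log axis by strain and day with the group mean as a line, and the ratio of their reads in each of the 27 libraries (right, log axis) against the library's median log2 deviation of the shortest minus the longest tertile of transcripts. AKR/J d12 replicates 1 and 3 lay at ratios of 2.27 and 2.33 with deviations of 0.75 and 0.68, and replicate 2 at 1.02 with 0.19.

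On d15 Hspe1 was lowest in C57BL/6J. It had 42.5, 56.9 and 48.4 CPM there, 74.2, 74.4 and 74.1 CPM in AKR/J and 113, 115 and 104 CPM in Cav1-null, and no 2 strains overlapped. The erythroid markers were lowest in C57BL/6J on d15 as well, and in Cav1-null they went from 2909 to 3616 CPM on d15 to 569 to 2580 CPM on d17, and their part in the level of Hspe1 was not tested. It was higher than in C57BL/6J by 0.66 in AKR/J (SE 0.11, adjusted p = 0.00224) and by 1.21 in Cav1-null (SE 0.09, adjusted p = 1.3e-06), and by 0.40 and 0.86 with the trends taken out (adjusted p = 0.0169 and 9.2e-06). In Cav1-null it fell from d15 to 90.9, 68.8 and 83.2 CPM on d17 (−0.45, SE 0.09, adjusted p = 0.00309), a call lost in 1 model of all 27 libraries (−0.45, adjusted p = 0.493). Of 10 other mitochondrial chaperones and proteases, 2 were higher and 6 lower in Cav1-null than in C57BL/6J on d15 (26.8% and 31.8% of all genes) and 2 higher and 4 lower in AKR/J (18.8% and 22.3%). Grpel1, the exchange factor of the matrix HSP70, which both lists hold, was highest in both (0.58 and 0.50), and the protease Lonp1 was lowest in both (−0.84 and −0.61).

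Regulators and other chaperone systems were counted as well, and on d15 the shares of all genes called higher and lower were 18.8% and 22.3% in AKR/J and 26.8% and 31.8% in Cav1-null. Among 5 heat shock factors and their regulators, Hsf2 was lower on d15 than on d12 in AKR/J (−0.62, adjusted p = 0.0293) and in C57BL/6J (−0.55, adjusted p = 0.0400). On d15, 2 of the 5 were higher and 0 lower in AKR/J than in C57BL/6J, and 2 were higher and 1 lower in Cav1-null, with Hsbp1, a negative regulator of heat shock factors, at 0.77 and Hsf4 at −1.66. Of the 14 subunits of the cytosolic chaperonin TRiC and of prefoldin, which fold actin and tubulin, 9 were higher and 0 lower in AKR/J on d15, and 8 higher and 3 lower in Cav1-null, both led by Pfdn4 (0.96 and 1.47). Within Cav1-null, 7 were lower and 0 higher from d12 to d15 (11.8% and 11.6% of all genes), and 11 were lower and 0 higher from d15 to d17 (12.8% and 14.5%). Of 20 immediate early genes, which are transcribed within minutes of many stimuli, 18 were tested on d15 in Cav1-null, with 11 lower and 1 higher than in C57BL/6J. In AKR/J 19 were tested, with 7 lower and 0 higher, Fosl2 lowest at −1.72. Jun was lowest in Cav1-null at −1.91. On d15 their summed level lay between 412 and 437 CPM in C57BL/6J libraries, between 223 and 281 CPM in those of AKR/J and between 174 and 199 CPM in those of Cav1-null. The strains stood in the same order by their mean Hspa1a and Hspa1b on that day, and a link between them was not tested.

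Over the 27 libraries, Pearson's r on log2(CPM + 1) was used as a measure of likeness between patterns, without a test, since libraries of a group share strain, day and composition. The gene most like Hspa5 was Pdia3, a disulfide isomerase of the ER (r = 0.980), followed by Tm9sf2 (0.963) and Pdia4 (0.953). For Hspe1 they were Ndufa2 (0.993), Bola2 (0.990) and 1810037I17Rik (0.990), and for Hsp90ab1 they were Gars (0.975), Ppm1g (0.972) and Prag1 (0.970). The most similar gene of each other member was Fbxo45 for Hsph1 (0.963), Tmem185b for Dnajb1 (0.943), Nemf for Hsp90aa1 (0.895), Chp1 for Hspa8 (0.895), Mrm1 for Hspa1a (0.865), Myh9 for Hspa1b (0.864) and Slc39a8 for Hspb1 (0.807). Between members, Hsp90ab1 and Hsph1 were closest (r = 0.934), then Hspa5 and Dnajb1 (0.903). The 2 stress-inducible genes reached 0.744, and the lowest value was that of Hsp90aa1 with Hspa1b (−0.697).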

How the data were processed

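The authors checked reads with FastQC, trimmed them with cutadapt and fastp and mapped them to GRCm39 with STAR. They deposited raw counts of reads per Ensembl gene and raw counts of reads that span splice junctions, from which junctions with multi-mapped or few reads had been removed, so that a 0 there gave no ratio. The submitters' processing notes also name edgeR and bedtools. The counting tool, its strand setting and its handling of multi-mapped reads are not given in the sources used here.

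Libraries were grouped by strain and day as labelled. Each comparison was fitted on the libraries of its own groups in R 4.3.3 with edgeR 4.0.16 (filterByExpr, TMM, glmQLFit and glmQLFTest) over all genes, with Benjamini-Hochberg adjustment and a threshold of 0.05. A difference in change between strains was tested as an interaction over 12 libraries. The SE was derived from each fitted change and its F statistic. CPM used TMM factors over 27 libraries and RPKM the length of the canonical transcript (GRCm39). GC and length deviations were taken over genes with a mean of at least 8 CPM. Promoters were searched from 250 bases before to 50 bases after the RefSeq start. Python 3.11.15 with pandas 2.3.3 and Biopython 1.88 was used for levels and alignments. Libraries held 26363697 to 39759702 reads, and replicates differed by 5.53 to 339.8 times the counting variance (chi-square per degree of freedom). The fits were tested on simulated data. DESeq2 1.42.0, RLE factors, library sizes alone, other filters, 1 model of all 27 libraries, a replicate block and leaving out single libraries were alternatives. The trend correction, the summed pair, the junction ratio and leaving out the 3 libraries against the sex label were added after seeing the data.

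All 10 members are named. In each list the called gene with the largest change in each direction could be named, and the 3 genes most like a member were taken among genes with a mean log2 CPM of at least 3. Hspd1 as the partner of Hspe1, the Hspe1 pseudogenes and Xist were chosen after their values were seen. A related gene is not reported here. Members and lists were chosen with earlier results of these data known.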

Additional observations from a re-analysis of the deposited data

Results flagged for a closer look

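The change of Hspa1a from d12 to d15 differed between strains by the test of the difference itself. It rose in C57BL/6J, while its log2 fold change in AKR/J was −1.44, and the interaction of strain and day was −3.37 (SE 0.52, adjusted p = 0.0471, edgeR's quasi-likelihood test over 12 libraries). Over the alternatives the adjusted p of this difference ran from 6.1e-05 (DESeq2) to 0.304 (without the libraries against the recorded sex), and the gene rested on 9 to 73 reads per library in these 4 groups. Whether reads shared with Hspa1b contributed was not tested.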

How the results depend on the processing

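No called member changed sign under any alternative. Of 29 called results (28 between 2 groups and 1 interaction), DESeq2 and RLE factors kept all 29, no filter on low counts kept 27, library sizes alone 26, the trend correction 24, and 1 model of all 27 libraries 21. With each library left out in turn, 17 were kept throughout. The number of members called then ran, for d12 to d15 and d15 to d17, from 1 to 5 and 0 to 3 in AKR/J, from 0 to 3 and 0 to 5 in C57BL/6J, and from 1 to 4 and 2 to 3 in Cav1-null. Against C57BL/6J it ran from 0 to 3, 5 to 9 and 0 to 6 in AKR/J on d12, d15 and d17, and from 0 to 0, 8 to 9 and 0 to 5 in Cav1-null. For the interactions it ran from 0 to 2 and 0 to 0 (AKR/J, early and late) and from 0 to 3 and 0 to 5 (Cav1-null).

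Counts of called members moved by over 1.5 times in these cases, and the cause was not tested. DESeq2 gave 2 for C57BL/6J d12 to d15, 4 for AKR/J against C57BL/6J on d12, 3 on d17, and 3 and 1 for the early AKR/J and late Cav1-null interactions. Without a filter these were 2, 4, 2, 2 and 1, and with library sizes alone the AKR/J d12 difference gave 4. At least 10 reads in every library gave 0 for the early AKR/J interaction, since Hspa1a was then left out. The model of all 27 libraries gave 5 and 0 for AKR/J over the 2 phases, 1 for C57BL/6J d15 to d17, 1 and 0 for Cav1-null, 5, 5 and 3 for AKR/J against C57BL/6J on d12, d15 and d17, and 2 for the early AKR/J interaction. The trend correction gave 5 and 1 for AKR/J over the 2 phases, 2 for C57BL/6J d15 to d17, 1 for AKR/J against C57BL/6J on d12 and 1 for the late Cav1-null interaction. Leaving out the libraries against the sex label gave 0 and 0 for AKR/J over the 2 phases, 1 for AKR/J against C57BL/6J on d12 and 0 for the early AKR/J interaction. This left 2 libraries in AKR/J d12 and in AKR/J d15 and 3 in the C57BL/6J groups. It kept all 8 members of AKR/J against C57BL/6J on d15.

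Libraries share only a replicate number, and in 0 of 12 comparisons did every same-numbered pair deviate together (r over 0.1). With a replicate block, 24 of the 29 results were kept, and counts were 0 for AKR/J d15 to d17, 0 for C57BL/6J d12 to d15, 1 for AKR/J against C57BL/6J on d17 and 0 for the early AKR/J interaction. In group levels, 84 of 90 means stayed within 1 SD under RLE factors and 66 of 90 under library sizes alone, which moved the median of all genes by up to 0.46 (AKR/J d12 to d15). A pseudocount of 0.1 kept 29 of the 30 most similar genes. Hspa1a and Hspa1b, at 5 to 156 reads per library, limit what this depth can show.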
